A study of Mus musculus with 12 samples.

Results

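The comparison described here sets mouse livers on a diet that models metabolic dysfunction-associated steatohepatitis (MASH) against livers on a control diet. It rests on 8 of the 12 libraries of the study, chosen by their labels, and covers all 13631 genes with enough reads to test. All 12 libraries come from snap-frozen livers of mice described as AhR-floxed and male, with an age label of 8 weeks that does not say at which point, in a study that ran for 20 weeks. No Cre driver is named in the labels, so the aryl hydrocarbon receptor gene carries loxP sites in controls and treated mice alike. The control diet group (CD, 4 libraries) ate a diet with 10 kcal% fat and matching sucrose, and the labels do not say whether these mice were injected. The MASH diet group (MD, 4 libraries) ate a diet with 2% cholesterol, 20 kcal% fructose and 40 kcal% fat and was injected in the peritoneum 3 times a week with vehicle, 0.2% DMSO in saline. Diet and injection therefore cannot be told apart. The other 4 libraries (MD+CA) are from mice on the MASH diet given cinnabarinic acid at 12 mg/kg. Their levels are given beside those of CD and MD for a few genes and are not tested here. The labels do not say that each library is a separate mouse, so each p-value reflects the scatter among these libraries alone, part of which may be technical.

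In a fatty liver, triglyceride is stored in lipid droplets and comes from fatty acids taken up from the blood and from those the hepatocyte makes itself. The enzymes of fatty acid synthesis are switched on by the factors SREBP-1c, which responds to insulin and to oxysterols through the receptor LXR, and ChREBP, which responds to sugars. The enzymes of cholesterol synthesis are switched on by SREBP-2, which sterols hold back in the endoplasmic reticulum, so that dietary cholesterol is known to lower them. MASH adds hepatocyte stress, inflammation, recruited macrophages and collagen made by stellate cells.

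Each library had 9673290 to 14492587 assigned reads. Levels below are CPM, a gene's reads relative to the library total scaled by TMM, and values of 4 libraries are in the order of replicates 1 to 4. Xist, the RNA of the inactive X chromosome, had 8540 to 12865 reads in each of the 8 libraries, and 4 genes of the Y chromosome had 0 reads in all of them, which allows at most 0.310 CPM (3 reads, counting error only). The label of male sex is therefore not what the reads show in either group. Reads from mitochondrially encoded genes made up 6.39, 6.08, 5.72 and 6.63% in CD and 10.7, 17.5, 6.16 and 9.37% in MD. The allowance for fragment length is the median over transcripts of the transcript length less the effective length in the deposited tables. It was 246, 268, 279 and 258 bases in CD and 230, 221, 261 and 253 bases in MD. MD replicates 1 and 2 had the shortest fragments and the largest mitochondrial shares. Libraries with an allowance under 260 bases (CD 1 and 4, MD 1, 2 and 4) also differed from the others in 3 pseudogenes, Gm11518, Gm12918 and Rpl10a-ps1, which had reads in all short libraries of the study and 0 in all long ones. These 3 were picked from all genes tested for that pattern, so they are no separate support for the classes. On the first principal component of the 500 most variable genes, which held 43.3% of their variance, CD lay at -2.9, -29.9, -24.7 and -2.3 and MD at 23.8, 40.8, -11.4 and 6.5. Both MD libraries with the shortest fragments lay highest, and MD replicate 3 lay among the CD libraries. Among these 8 libraries fragment length, mitochondrial share and group moved together, and their part in the results was not tested beyond the values given below. In MD+CA only replicate 1 had short fragments, and its mitochondrial share was not large. With 1 such library the group cannot show whether the 2 measures go together. The allowances there were 227, 274, 269 and 274 bases and the shares 5.35, 6.90, 4.97 and 7.94%.

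**Figure D1:**
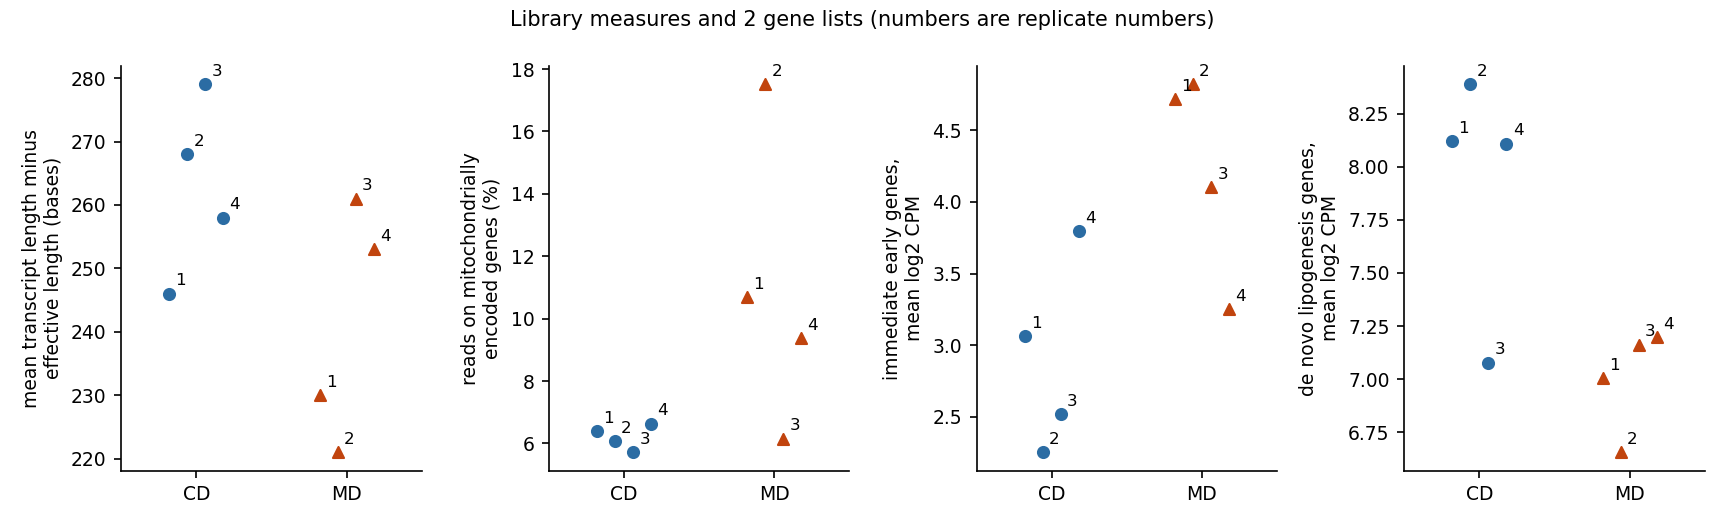
The 4 panels show measures by library, with CD as circles, MD as triangles and replicate numbers beside the points: fragment length allowance in bases, reads on mitochondrially encoded genes in percent, and the mean log2 CPM of immediate early genes and of de novo lipogenesis genes. The allowance is a median over transcripts, though its axis reads mean. MD replicates 1 and 2 have the shortest fragments (230 and 221 bases), and CD replicate 3, with the longest (279 bases), has a lipogenesis level inside the MD range.

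In all, 12 genes passed an adjusted p of 0.05 in edgeR's quasi-likelihood test, 0.088% of the genes tested, with 6 higher and 6 lower in MD (0.044% each). The higher ones were the stress cytokine Gdf15, the transcription factor Jun, the lipid droplet protein Fitm1, the uncoupling protein Ucp2, the axon guidance protein Sema5b and the mitochondrial microprotein Stmp1. The lower ones were Smad9, a mediator of bone morphogenetic protein (BMP) signals, G6pdx, glucose-6-phosphate dehydrogenase of the pentose phosphate pathway, Rims4, of a family of synaptic proteins, Pgap1, an enzyme that trims glycosylphosphatidylinositol anchors, the zinc finger gene Nfxl1 and the long noncoding RNA Gm15998. In all 12 genes the CD and MD libraries did not overlap, which was also so for 1787 of all genes tested (13.1%). In total, 2719 genes (19.9%) had an unadjusted p under 0.05, 1438 higher (10.5%) and 1281 lower (9.4%) in MD. The median log2 fold change over all genes was 0.04. The estimated difference was over 2 fold in 682 genes upward and 293 downward. In counts simulated at the same depth and with each gene's fitted spread, the test found 34% of 2-fold and 82% of 4-fold changes. Of its calls there 6.1% were false. The simulation held no differences shared by many genes of a library, such as those of fragment length, and changed no genes of the lowest level. Its shares may therefore not hold for the real libraries, but most 2-fold changes were missed even there. The number of calls depended on single libraries: it was 0 without CD replicate 1 (2326 genes at an unadjusted p under 0.05) or 2 (1724 genes), 5 without CD replicate 3, 1 without CD replicate 4, 2 without MD replicate 1 or 2, 26 without MD replicate 3, 5 without MD replicate 4, 16 without MD+CA replicate 1, 11 without MD+CA replicate 3, and 1 without MD+CA replicate 2 or 4. The MD+CA libraries share in the estimate of spread. DESeq2 called 629 genes (4.61%, with 2.21% higher and 2.41% lower) and limma voom with sample weights 374 (2.74%, with 1.38% higher and 1.36% lower), both including all 12. These shares, with the 10.5% higher and 9.4% lower at an unadjusted p under 0.05, are the background for counts of list members below. Medians of lists are set against the median of all genes, which was not matched to the level of their members. With fragment length as a covariate 6 genes passed, and only 3 of the 12 were among them. With fragment length class as a block, an alternative chosen after seeing the data, 12 genes passed, 11 of them the same.

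**Figure D2:**
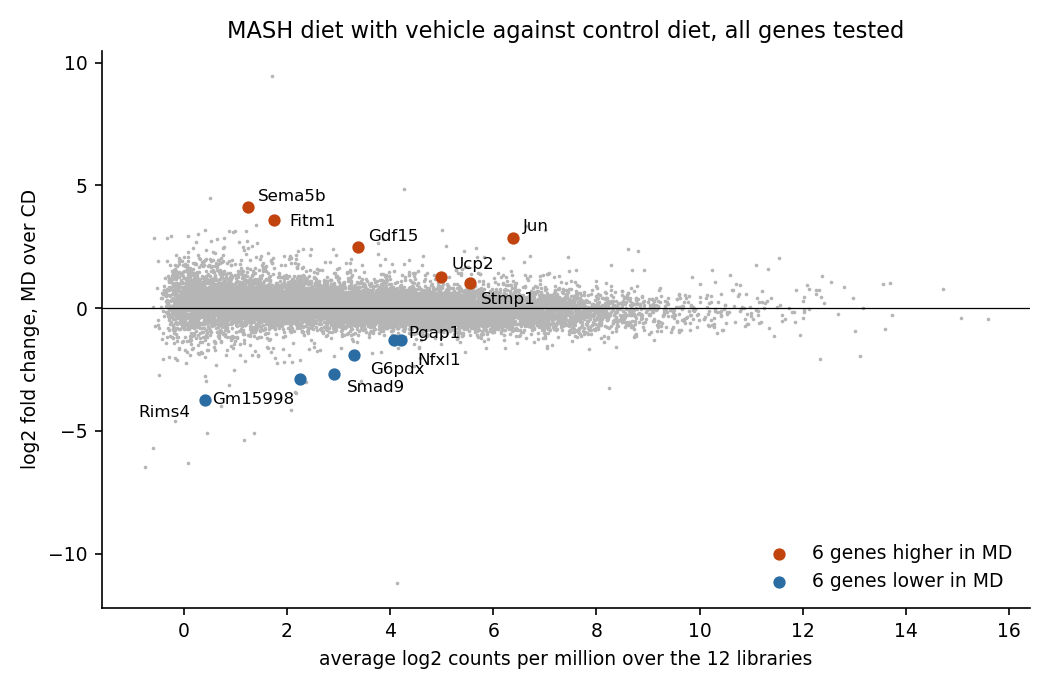
Log2 fold change of MD over CD against average log2 CPM for the 13631 genes tested (grey points), with the 6 higher (orange) and 6 lower (blue) genes past an adjusted p of 0.05 named. Some grey points lie as far from 0 as the named genes and did not pass.

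Smad9 had the smallest p of all genes. It is a receptor-regulated SMAD that BMP receptors phosphorylate. It was at 19.7, 19.5, 11.4 and 15.0 CPM in CD replicates 1 to 4 and at 2.87, 3.26, 2.10 and 2.07 CPM in MD. Every control was far above every MD library, and Smad9 fell by 2.67 (SE 0.33) on the log2 scale, with an adjusted p = 0.01002. Its single listed transcript went from 207 ± 67.8 to 31.8 ± 6.7 reads (SD, n = 4). The call held in 10 of the 12 fits that left out 1 library, where each of the other 11 genes held in 1 to 4. The difference was -2.60 among libraries with short fragments and -2.73 among those with long ones, both in mean log2 CPM. In MD+CA it was at 1.29, 4.01, 2.78 and 4.58 CPM, below the lowest control in all 4 libraries.

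G6pdx, which supplies NADPH for fatty acid synthesis, was at 18.1, 18.5, 8.67 and 27.9 CPM in CD and 4.20, 4.48, 6.99 and 3.58 CPM in MD, a fall of 1.93 ± 0.32 on the log2 scale (adjusted p = 0.0392). CD replicate 3 was lowest of the controls and close to the highest MD library. The difference was -2.42 among short-fragment libraries and -0.85 among long-fragment ones, the latter with a single MD library. In MD+CA the gene was at 5.77 ± 1.19 CPM (SD, n = 4).

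Pgap1 was at 24.7, 27.0, 25.8 and 24.3 CPM in CD, a narrow range, and at 11.8, 6.31, 11.2 and 11.4 CPM in MD. It fell by 1.32 ± 0.21 on the log2 scale (adjusted p = 0.0392). Nfxl1 was at 18.6, 25.1, 29.2 and 20.8 CPM in CD and 8.27, 8.04, 12.1 and 9.47 CPM in MD and fell by 1.30 ± 0.23 (adjusted p = 0.0493). Its protein-coding transcript Nfxl1-202 was at 207 ± 28.2 reads in CD and 67.1 ± 50 in MD (SD, n = 4), with MD replicate 2 listed at 0, and its retained-intron transcript Nfxl1-207 at 61.7 ± 10.4 and 34.2 ± 7.8. The nonsense-mediated decay transcript Nfxl1-204 was higher in the mean, at 2.1 ± 4.2 and 15.3 ± 22.4 reads. In MD+CA Nfxl1 was at 22.3 ± 5.50 CPM (SD, n = 4).

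Rims4 was a low gene at 2.03, 4.86, 1.25 and 2.29 CPM in CD and 0.210, 0.407, 0.0751 and 0.0796 CPM in MD, which are 31.2 ± 13.9 and 2.2 ± 1.5 reads. It fell by 3.74 ± 0.59 on the log2 scale (adjusted p = 0.0392). Gm15998, for which no function is stated here, was at 12.8, 12.6, 3.31 and 4.38 CPM in CD, with replicates 1 and 2 far above 3 and 4, and at 1.19, 1.43, 0.676 and 1.19 CPM in MD, and fell by 2.88 ± 0.47 (adjusted p = 0.0392).

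Gdf15 encodes a secreted member of the transforming growth factor beta superfamily that stressed liver releases and that lowers appetite through a brainstem receptor. It was at 4.59, 1.72, 3.93 and 5.35 CPM in CD and 27.0, 34.4, 17.5 and 10.3 CPM in MD, and rose by 2.49 ± 0.38 on the log2 scale (adjusted p = 0.0392). Every MD library was above every control, with the highest values in MD replicates 1 and 2. Most of its reads were of Gdf15-202, at 42 ± 28.4 in CD and 228.8 ± 131.9 in MD. In MD+CA it was at 4.23, 2.54, 5.44 and 4.76 CPM.

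Jun, part of the AP-1 transcription factor, was at 26.5, 12.4, 23.2 and 42.3 CPM in CD and 235, 300.5, 181 and 50.5 CPM in MD. It rose by 2.88 ± 0.49 on the log2 scale (adjusted p = 0.0469). MD replicate 4 was only a little above CD replicate 4, and the other 3 MD libraries were far above all controls. In MD+CA Jun was at 31.3 ± 11.9 CPM. It belongs to the immediate early genes, described as a group below.

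Fitm1 sits in the endoplasmic reticulum, binds triglyceride and takes part in droplet formation, mainly in muscle. It was barely present in CD, at 0.473, 0.101, 0.537 and 1.25 CPM or 8 ± 7.2 reads, and at 6.10, 7.53, 3.23 and 13.5 CPM or 93.5 ± 54.2 reads in MD. It rose by 3.60 ± 0.63 on the log2 scale (adjusted p = 0.0486). Sema5b was as low in CD, at 0.338, 0.101, 0.447 and 0.278 CPM, and at 1.61, 5.60, 4.06 and 10.0 CPM in MD, and rose by 4.12 ± 0.64 (adjusted p = 0.0392).

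Both remaining genes belong to the mitochondrion. Ucp2, a carrier of the inner membrane, was at 19.5, 14.0, 17.7 and 21.8 CPM in CD and 46.4, 41.0, 28.8 and 60.2 CPM in MD and rose by 1.27 ± 0.22 on the log2 scale (adjusted p = 0.0486). Stmp1 was at 29.7, 32.3, 31.4 and 39.3 CPM in CD and 75.6, 61.1, 54.8 and 78.2 CPM in MD and rose by 1.02 ± 0.18 (adjusted p = 0.0486), and 45.8% of its reads in CD and 48.7% in MD were assigned to a retained-intron transcript. Its MD+CA level was 40.2 ± 3.86 CPM, and that of Ucp2 32.0 ± 3.35 CPM.

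**Figure D3:**
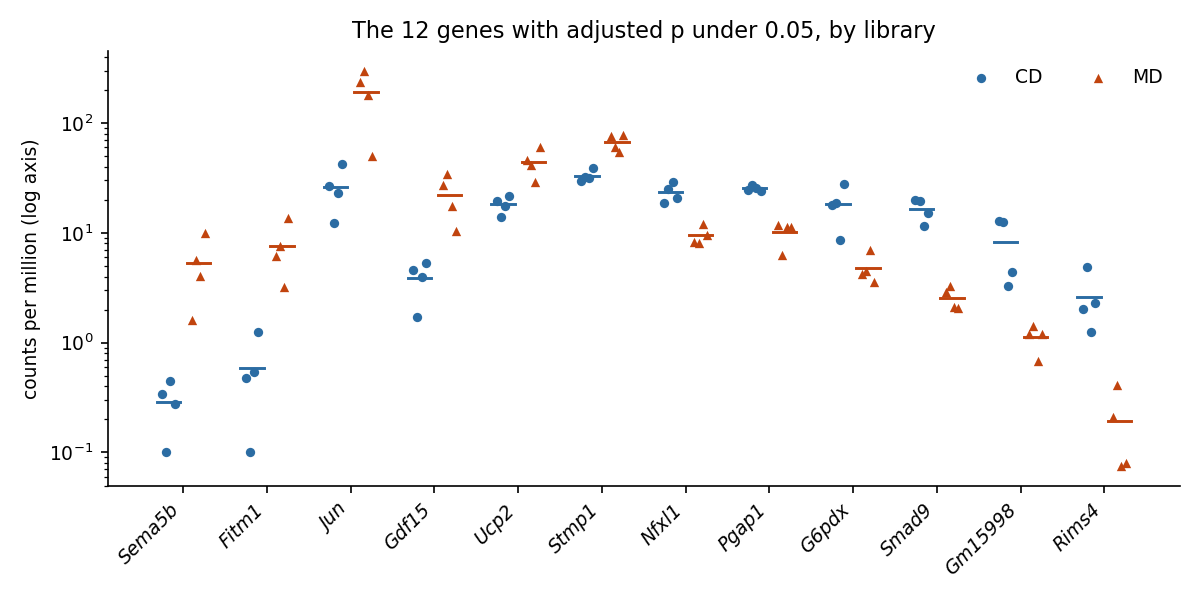
CPM (log axis) in each CD library (circles) and MD library (triangles) of the 12 genes past an adjusted p of 0.05, with bars at group means. The groups are apart in every gene, most closely in Jun, where MD replicate 4 (50.5 CPM) is near CD replicate 4 (42.3 CPM).

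Behind these 12 stand genes whose groups were just as separate but whose adjusted p lay above 0.05. The 10 with the smallest p in each direction, among protein-coding genes with no overlap between groups, had adjusted p-values of 0.055 to 0.0888. Upward they were Kifc2, Cenpm, Actg1, Cd59b, Dio1, Peds1, Mtln, Gdf10, Gpr12 and Smpd2. Kifc2, a kinesin, was at 1.29 on the log2 scale and at 0.47 with protein-coding transcripts only. Dio1, the deiodinase that activates thyroid hormone in liver, was at 69.8, 56.8, 85.8 and 74.1 CPM in CD and 205, 154, 154 and 225 CPM in MD (1.37 ± 0.27 on the log2 scale). Actg1, cytoplasmic gamma-actin, was at 74.8, 61.0, 61.7 and 74.3 CPM in CD and 187, 214, 159.8 and 112 CPM in MD (1.31 ± 0.25). Mtln encodes a further mitochondrial microprotein, mitoregulin, and stood at 3.19 ± 1.01 CPM in CD and 7.56 ± 1.21 CPM in MD. Downward they were Acp3, Hsd3b5, Rbfox2, Mogs, Cadm4, Abca8a, Rrp15, Tasp1, Apom and Pmvk. Rbfox2, a splicing regulator, was at 26.5, 26.2, 22.4 and 21.3 CPM in CD and 13.4, 14.4, 14.4 and 12.9 CPM in MD (-0.81 ± 0.16, but -0.33 with a transcript length offset). Mogs, which removes the first glucose from N-glycans, was at 33.6 ± 4.24 and 17.9 ± 3.55 CPM. Abca8a, a lipid transporter, was at 91.7, 144, 151 and 89.1 CPM in CD and 37.0, 38.9, 52.1 and 24.03 CPM in MD (-1.64 ± 0.33). In each of these genes the CD and MD libraries did not overlap, the trait they were chosen for, and the difference did not pass the correction over all genes.

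Promoter windows are shown for 4 genes that stand for the groups described next: Jun and Btg2 for the immediate early genes, Pnpla3 for lipogenesis and Sc5d for cholesterol synthesis. Each runs from 250 bases before to 50 after the RefSeq start site, 5′ to 3′ on the gene's strand, in build GRCm38.p6. Capitals mark CCAAT or its reverse complement ATTGG, the box bound by NF-Y, a partner of the SREBPs, TGACGTCA, the cyclic AMP response element, and CACGTG, an E-box. Jun is at chr4:95052173-95052472 (minus strand), Btg2 at chr1:134079106-134079405 (minus), Sc5d at chr9:42264251-42264550 (minus) and Pnpla3 at chr15:84167566-84167865 (plus).
Jun: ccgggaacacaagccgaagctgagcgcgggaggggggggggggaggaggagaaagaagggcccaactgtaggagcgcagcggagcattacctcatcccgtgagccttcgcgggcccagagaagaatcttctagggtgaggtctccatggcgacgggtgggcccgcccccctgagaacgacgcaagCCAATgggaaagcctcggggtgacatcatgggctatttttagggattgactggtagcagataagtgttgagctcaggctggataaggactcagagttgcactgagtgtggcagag
Btg2: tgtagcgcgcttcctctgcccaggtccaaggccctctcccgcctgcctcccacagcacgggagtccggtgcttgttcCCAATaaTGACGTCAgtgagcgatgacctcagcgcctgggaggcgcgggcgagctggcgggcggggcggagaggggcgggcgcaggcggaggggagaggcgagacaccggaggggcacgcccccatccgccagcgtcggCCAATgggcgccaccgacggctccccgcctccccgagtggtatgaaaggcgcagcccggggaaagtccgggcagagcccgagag
Sc5d: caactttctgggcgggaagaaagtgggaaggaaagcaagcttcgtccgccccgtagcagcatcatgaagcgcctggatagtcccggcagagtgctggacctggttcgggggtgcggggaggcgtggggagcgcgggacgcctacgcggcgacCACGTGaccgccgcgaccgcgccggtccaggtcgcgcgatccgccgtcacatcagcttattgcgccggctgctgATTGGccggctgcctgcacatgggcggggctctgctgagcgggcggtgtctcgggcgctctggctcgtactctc
Pnpla3: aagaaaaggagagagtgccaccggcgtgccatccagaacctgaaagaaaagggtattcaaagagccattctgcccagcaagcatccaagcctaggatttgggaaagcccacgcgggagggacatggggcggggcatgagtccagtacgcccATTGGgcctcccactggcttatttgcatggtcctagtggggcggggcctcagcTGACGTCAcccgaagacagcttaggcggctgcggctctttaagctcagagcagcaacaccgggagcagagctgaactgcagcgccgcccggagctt

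On both strands, CCAAT was found in 37.4%, CACGTG in 7.15% and TGACGTCA in 1.79% of all 32851 promoter windows of the table. By gene, with at least 1 window holding it, CCAAT was in 41.1% of 27025 genes, in all 16 cholesterol synthesis genes with a window, in 14 of 17 lipogenesis genes and 14 of 16 chaperone genes of the endoplasmic reticulum, and in 8 of 17 immediate early genes. TGACGTCA was in 2.03% of these genes, in 3 of the 17 immediate early genes (Btg2 among them) and in 2 of the 17 lipogenesis genes. CACGTG was in 8.09% of all genes, in 5 of 17 immediate early, 4 of 17 lipogenesis, 4 of 16 cholesterol and 2 of 16 chaperone genes. TGANTCA, the AP-1 motif, was in 8.97% of all genes and in 0 of 17 immediate early, 1 of 17 lipogenesis, 2 of 16 cholesterol and 2 of 16 chaperone genes. Of the 12 genes that passed, 10 had a window, and 3 of them held CCAAT, 1 CACGTG and none TGACGTCA or TGANTCA. A match is a description of letters in a fixed window, not a binding site.

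De novo lipogenesis genes were the group with the lowest median. All 20 listed genes were tested, none passed the adjusted p of 0.05 in edgeR, 11 were lower and 0 higher at an unadjusted p under 0.05, and their median log2 fold change was -1.01 against 0.04 over all genes. In 4 genes all MD libraries were below all CD libraries, where 7.12% of all genes were. DESeq2 called 8 of the 20 and voom 4, all lower. Scd1, the desaturase that makes oleate, was at 10668, 14346, 5339 and 12166 CPM in CD and 964, 887, 3856 and 4432 CPM in MD (-2.07 ± 0.50 on the log2 scale, adjusted p = 0.104). CD replicate 3 was lowest of the controls and MD replicates 1 and 2 far below 3 and 4. Acaca, which makes malonyl-CoA for the pathway, was at 189.7, 344, 151 and 229 CPM in CD and 50.1, 61.6, 123 and 76.2 CPM in MD (-1.56 ± 0.37). Pnpla3, the lipid droplet hydrolase linked to human fatty liver, was at 12.0, 23.8, 1.61 and 6.12 CPM in CD and 1.19, 1.32, 0.751 and 0.637 CPM in MD (-3.47 ± 0.75), with CD replicate 3 again closest to MD.

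Fatty acid synthase itself, Fasn, overlapped. It was at 709, 819, 176 and 651 CPM in CD and 222, 229.7, 176 and 152 CPM in MD (-1.60 ± 0.46, adjusted p = 0.121), and CD replicate 3 lay inside the MD range. Acly, which cleaves citrate to acetyl-CoA, showed the same layout, at 454, 554, 123 and 471 and 129, 113, 143 and 118 CPM (-1.67 ± 0.42). Pklr, the liver pyruvate kinase and a ChREBP target, was at 388, 346, 221 and 359.7 CPM in CD and 132, 89.9, 187 and 168 CPM in MD (-1.19 ± 0.34). Gpam, the first acyltransferase of glycerolipid synthesis, was at 150.3 ± 65.9 and 73.3 ± 13.9 CPM (-1.04 ± 0.39). Srebf1, the gene of SREBP-1c and its longer form, was at 139, 150.3, 74.2 and 124 CPM in CD and 172, 173, 95.0 and 90.3 CPM in MD (0.12 ± 0.28), with overlapping libraries. Mean log2 CPM of the list was 8.12, 8.39, 7.08 and 8.11 in CD and 7.01, 6.66, 7.16 and 7.20 in MD, so CD replicate 3 lay inside the MD range. The difference of these means was -1.16 among short-fragment libraries and -0.57 among long-fragment ones.

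In the pentose phosphate and NADPH list of 11 genes (12 identifiers tested, median -0.24), G6pdx was the 1 gene that passed. At an unadjusted p under 0.05, 3 identifiers were higher and 5 lower. Pgd, the next NADPH-making enzyme of the pathway, was at 32.4 ± 7.41 CPM in CD and 21.7 ± 3.27 CPM in MD (-0.58 ± 0.21), and Taldo1, of its non-oxidative arm, at 99.9 ± 23.9 and 157 ± 39.2 CPM (0.66 ± 0.28, but 0.031 with protein-coding transcripts only). Nnt, the mitochondrial transhydrogenase, appears under 2 identifiers that can share reads. The first (ENSMUSG00000025453) was at 10.1, 11.8, 9.12 and 7.995 CPM in CD and 38.3, 44.6, 19.8 and 32.9 CPM in MD (1.80 ± 0.40), and the other (ENSMUSG00000116207) was at -0.72 ± 0.31, so the level of Nnt is uncertain.

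**Figure D4:**
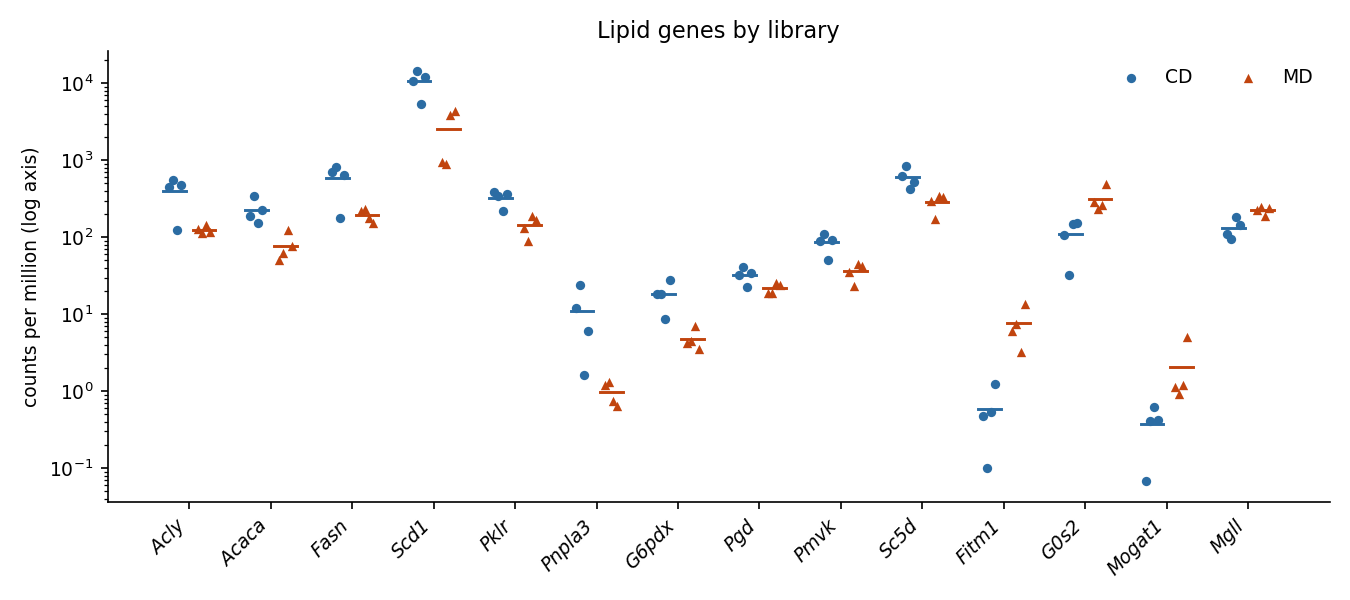
CPM (log axis) in each CD library (circles) and MD library (triangles) of 14 genes of fatty acid and cholesterol synthesis, NADPH supply and lipid storage, with bars at group means. Acly, Fasn and Pgd overlap through CD replicate 3, while Fitm1, G0s2, Mogat1 and Mgll are higher in every MD library; only G6pdx and Fitm1 passed an adjusted p of 0.05.

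Cholesterol synthesis and uptake genes were lower on balance. None of the 24 passed in edgeR, 9 were lower and 0 higher at an unadjusted p under 0.05, 5 had all MD libraries below all CD libraries (7.12% over all genes), and the median was -0.40. DESeq2 called 3 lower and voom 1 (2.41% and 1.36% over all genes). Pmvk, the phosphomevalonate kinase, was at 90.1, 109, 50.8 and 92.3 CPM in CD and 35.0, 23.4, 45.2 and 41.9 CPM in MD (-1.23 ± 0.26, adjusted p = 0.0888). Sc5d, a sterol desaturase near the end of the pathway, was at 632, 853, 424 and 517 CPM in CD and 299.9, 175, 343 and 335 CPM in MD (-1.07 ± 0.31). Mvk, the kinase before Pmvk, was at 13.8 ± 1.62 and 9.07 ± 1.65 CPM (-0.60 ± 0.19). These 3 did not overlap between groups. Sqle, squalene epoxidase, did, at 32.3, 56.1, 22.4 and 37.9 CPM in CD and 31.3, 19.5, 17.0 and 33.3 CPM in MD (-0.55 ± 0.39). The list's difference was -0.34 among short-fragment and -0.48 among long-fragment libraries, in mean log2 CPM.

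Of 15 cholesterol efflux genes and LXR targets, none passed in edgeR, 1 was higher and 2 were lower at an unadjusted p under 0.05, DESeq2 called 1 and voom none, and the median was -0.16. Abca1, which loads cholesterol onto apolipoprotein A-I, was at 69.4 ± 12.7 CPM in CD and 47.3 ± 10.1 CPM in MD (-0.55 ± 0.24). The biliary sterol exporters Abcg5 and Abcg8 were at 0.30 ± 0.25 and -0.21 ± 0.30 on the log2 scale, with overlap.

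Of 22 tested bile acid genes, none passed in edgeR, 3 were higher and 3 lower at an unadjusted p under 0.05, DESeq2 called 2 higher and 2 lower, voom 1 lower, and the median was 0.08. Cyp8b1, the 12-alpha-hydroxylase that sets the share of cholic acid, was at 31.3, 11.3, 28.2 and 28.9 CPM in CD and 70.6, 45.3, 41.9 and 113 CPM in MD (1.44 ± 0.48, adjusted p = 0.138), with no overlap. Cyp7a1, the rate-limiting enzyme, was at 107.53, 251, 161 and 167 CPM in CD and 141, 167, 320.4 and 409 CPM in MD (0.60 ± 0.41) and overlapped. Nr0b2, the repressor SHP, was at 13.2 ± 6.36 CPM in CD and 33.4 ± 14.6 CPM in MD (1.34 ± 0.42). Klb, the co-receptor through which FGF15 and FGF21 signal, was at 20.7, 16.1, 9.84 and 11.54 CPM in CD and 7.57, 6.92, 7.89 and 5.09 CPM in MD (-1.08 ± 0.29). The basolateral exporter subunit Slc51b was low in both groups, at 3.09 ± 1.23 and 0.910 ± 0.542 CPM (-1.74 ± 0.50).

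Lipid droplet genes were higher on balance. Of 15 tested, Fitm1 passed, 7 were higher and 0 lower at an unadjusted p under 0.05, 3 had all MD libraries above all CD libraries (5.99% of all genes did), and the median was 0.58. G0s2, the inhibitor of adipose triglyceride lipase, was at 106.31, 32.4, 150.2 and 151 CPM in CD and 285, 233, 261 and 486 CPM in MD (1.52 ± 0.41, adjusted p = 0.115). Mgll, monoglyceride lipase, was at 109, 95.0, 182 and 143 CPM in CD and 227, 247, 189 and 238 CPM in MD (0.77 ± 0.23). Neither overlapped. Plin4 and Cidec, droplet proteins typical of fat cells and steatotic liver, were highest in MD replicate 4. Plin4 was at 4.27, 3.67, 8.34 and 43.3 CPM in the MD libraries against 0.810 to 4.24 CPM in CD, and Cidec at 0.911, 0.815, 3.98 and 13.8 CPM against 0.473 to 2.43 CPM. Without MD replicate 4 the log2 fold change was 0.72 in place of 2.17 for Plin4 and 0.67 in place of 2.02 for Cidec. Without that library Mogat1 was at 1.53, Elovl3 at 1.43, Inhbe at 0.90, Cd36 at 0.53 and Cyp7a1 at 0.29, each over 1.5 times smaller than with it. Plin2, the main droplet coat of hepatocytes, was at 185, 84.7, 166 and 201 CPM in CD and 133, 79.4, 172 and 266 CPM in MD (0.03 ± 0.34), with overlap.

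Fatty acid uptake and triglyceride synthesis genes had no common direction: of 18, none passed in edgeR, 2 were higher and 2 lower at an unadjusted p under 0.05, DESeq2 and voom each called 1 higher, and the median was -0.11. Mogat1, which makes diglyceride and is known to be induced in steatosis, was at 0.0675, 0.405, 0.626 and 0.417 CPM in CD and 1.12, 0.916, 1.20 and 5.01 CPM in MD (2.46 ± 0.66), apart in all libraries but highest in MD replicate 4. The fatty acid translocase Cd36 was at 23.0, 14.7, 32.9 and 27.3 CPM in CD and 31.8, 21.1, 53.3 and 89.2 CPM in MD (0.997 ± 0.50), with overlap. Mttp, which loads lipid onto apolipoprotein B, was at 238 ± 20.9 CPM in CD and 167 ± 41.9 CPM in MD (-0.52 ± 0.23). The intestinal-type fatty acid binding protein Fabp2 was at 0.87 ± 0.31.

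None of 25 fatty acid oxidation genes and PPARalpha targets passed in edgeR, 5 were higher and 0 lower at an unadjusted p under 0.05, 4 had all MD libraries above all CD libraries (5.99% over all genes), DESeq2 and voom each called 3 (2.21% and 1.38% higher over all genes), and the median was 0.40. Cpt2, the inner carnitine palmitoyltransferase, was at 129, 103.03, 176 and 147 CPM in CD and 257, 239, 209 and 261 CPM in MD (0.80 ± 0.24, adjusted p = 0.124). Acaa1a, the peroxisomal thiolase, was at 109.6 ± 33.7 CPM in CD and 187 ± 32.5 CPM in MD (0.77 ± 0.27), and Slc25a20, the carnitine-acylcarnitine carrier, at 72.0 ± 23.9 and 118 ± 18.1 CPM (0.71 ± 0.22). Cpt1a, the control step of the pathway, was at 0.27 ± 0.26 and Pdk4, which spares pyruvate when fat is burnt, at -0.11 ± 0.40, both with overlap.

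Among 13 apolipoprotein and lipoprotein genes (median 0.01, 3 higher and 1 lower at an unadjusted p under 0.05, none past the adjusted threshold in edgeR, 3 called by DESeq2 and 2 by voom), Apom stood lowest. Apom, the carrier of sphingosine-1-phosphate in high density lipoprotein, was at 202, 174, 172 and 229 CPM in CD and 49.5, 31.8, 103.96 and 66.0 CPM in MD (-1.63 ± 0.34, adjusted p = 0.086). Apoa2 was at 3985 ± 665 CPM in CD and 6655 ± 749 CPM in MD (0.74 ± 0.23), and Apoc3, an inhibitor of triglyceride clearance, at 463 ± 126 and 810.0 ± 211 CPM (0.81 ± 0.27).

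Of 17 tested genes of fructose and glucose metabolism, none passed in edgeR, 3 were lower and 0 higher at an unadjusted p under 0.05, DESeq2 and voom each called 2 lower, and the median was -0.25. Ppp1r3c, which targets phosphatase 1 to glycogen, was at 43.0, 31.5, 45.2 and 26.7 CPM in CD and 20.3, 22.3, 15.2 and 10.0 CPM in MD (-1.11 ± 0.27). The glucose transporter Slc2a2 was at 367, 329.6, 346 and 406 CPM in CD and 254, 212, 248 and 291 CPM in MD (-0.53 ± 0.27). Neither overlapped between groups. Khk, which phosphorylates fructose, was at -0.31 ± 0.27, with overlap.

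In the insulin, growth hormone and IGF list, 2 of 16 genes were higher and 4 lower at an unadjusted p under 0.05, none passed in edgeR, DESeq2 and voom each called 2 lower, and the median was -0.12. Lepr, the leptin receptor, was at 38.0, 28.3, 57.0 and 80.4 CPM in CD and 12.96, 9.98, 11.3 and 5.17 CPM in MD (-2.37 ± 0.52, adjusted p = 0.0904). Irs1, an adaptor of the insulin receptor, was at 24.99, 34.3, 33.4 and 31.0 CPM in CD and 21.6, 13.9, 20.1 and 14.2 CPM in MD (-0.82 ± 0.20). Foxo1, the factor that insulin excludes from the nucleus, was higher in every MD library, at 32.4 ± 3.01 CPM in CD and 49.7 ± 8.91 CPM in MD (0.61 ± 0.19).

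Secreted factors of the liver were higher on balance. Of 15 hepatokine genes, Gdf15 passed, 6 were higher and 0 lower at an unadjusted p under 0.05, DESeq2 and voom each called 3, and the median was 0.49. Fgf21, the fasting and stress hormone, was at 2.70, 1.22, 1.97 and 3.62 CPM in CD and 7.71, 3.97, 3.83 and 7.88 CPM in MD (1.28 ± 0.35, adjusted p = 0.115). Inhbe, the activin E subunit, was at 56.1, 30.4, 80.1 and 54.0 CPM in CD and 112, 76.7, 119.8 and 254 CPM in MD (1.35 ± 0.36), and Angptl8, which acts on lipoprotein lipase, at 43.4 ± 25.5 and 103.31 ± 56.9 CPM (1.25 ± 0.47).

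Smad9 was the 1 of 19 BMP and SMAD genes that passed. The list's median was -0.27, with 1 higher and 3 lower at an unadjusted p under 0.05. The type I receptor Acvr1 was at 9.93, 10.1, 11.4 and 11.3 CPM in CD and 7.71, 4.99, 7.74 and 9.31 CPM in MD (-0.52 ± 0.20). The co-receptor Hjv was at 60.0 ± 9.03 CPM in CD and 99.2 ± 29.1 CPM in MD (0.72 ± 0.26) and Tmprss6, the protease that cleaves it, at 147 ± 20.5 and 107.35 ± 13.5 CPM (-0.45 ± 0.20).

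Immediate early genes, which respond to stimuli within minutes and to the handling of tissue, had the highest median, 1.104. Of 20 tested, Jun passed, and 11 were higher and 0 lower at an unadjusted p under 0.05. In 2 genes all MD libraries were above all CD libraries (5.99% over all genes). DESeq2 called 7 and voom 1. Fos, the partner of Jun in AP-1, was at 1.62, 0.101, 0.537 and 4.87 CPM in CD and 83.7, 108.03, 23.2 and 2.55 CPM in MD (4.85 ± 0.96, adjusted p = 0.0765). MD replicate 4 lay inside the CD range. Btg2, an antiproliferative gene, was at 6.75, 4.86, 4.20 and 18.1 CPM in CD and 116, 131, 44.6 and 15.9 CPM in MD (3.17 ± 0.65), and Ier2 at 26.7, 10.2, 10.9 and 29.8 CPM in CD and 118, 190.3, 66.0 and 19.9 CPM in MD (2.34 ± 0.56), with the same library low. Mean log2 CPM of the list was 3.06, 2.25, 2.52 and 3.80 in CD and 4.72, 4.82, 4.10 and 3.25 in MD. The 2 MD libraries with the shortest fragments were highest, and within the control group both short-fragment libraries were above both long-fragment ones. The difference was 0.83 among short-fragment and 1.72 among long-fragment libraries. In MD+CA Fos was at 2.20, 1.39, 1.01 and 0.432 CPM.

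Chaperone genes of the endoplasmic reticulum were lower on balance. None of 18 passed in edgeR, and 5 were lower and 0 higher at an unadjusted p under 0.05. In 3 genes all MD libraries were below all CD libraries (7.12% over all genes). DESeq2 called 3 and voom 2, and the median was -0.54. Xbp1, the transcription factor of the unfolded protein response, was at 103.21, 106.67, 109 and 101.79 CPM in CD and 56.3, 37.7, 63.0 and 47.5 CPM in MD (-1.04 ± 0.23, adjusted p = 0.0904). Dnajb9, a cofactor of the chaperone BiP, was at 51.1, 73.0, 113 and 97.5 CPM in CD and 31.0, 17.2, 43.5 and 44.3 CPM in MD (-1.30 ± 0.40). Hyou1 was at 74.5 ± 13.7 CPM in CD and 39.3 ± 15.6 CPM in MD (-0.92 ± 0.32) and the disulfide isomerase Pdia6 at 357 ± 132 and 156 ± 80.4 CPM (-1.19 ± 0.37). The list's difference was -0.62 among short-fragment and -0.31 among long-fragment libraries.

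Of 16 cytosolic heat shock genes (median -0.06) 1 had an unadjusted p under 0.05 and was called by DESeq2 and voom. It was the small heat shock gene Hspb1, at 12.1, 13.6, 14.3 and 8.76 CPM in CD and 47.6, 23.1, 38.0 and 29.6 CPM in MD (1.51 ± 0.36). Of 10 integrated stress response genes (median 0.11) the 1 with an unadjusted p under 0.05, called by voom and not by DESeq2, was Ddit4, an inhibitor of mTORC1, at 3.34 ± 0.932 and 6.18 ± 1.05 CPM (0.89 ± 0.28). Of 17 NRF2 targets (median 0.27) 4 were higher and 0 lower at an unadjusted p under 0.05, and DESeq2 and voom each called 2. They include the glutathione transferase Gstp1 (61.5 ± 13.6 CPM in CD, 109.9 ± 25.9 CPM in MD, 0.84 ± 0.24), sulfiredoxin, Srxn1 (0.62 ± 0.19), the quinone reductase Nqo1 (0.68 ± 0.27) and the factor Nfe2l2 itself (0.56 ± 0.22). No gene of these 3 lists passed in edgeR.

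The aryl hydrocarbon receptor is the gene with loxP sites in these mice. Ahr was at 20.5, 18.5, 24.1 and 27.9 CPM in CD and 31.5, 32.4, 23.3 and 36.5 CPM in MD (0.44 ± 0.24, adjusted p = 0.324), with overlap, and its dimer partner Arnt at 54.1 ± 13.5 and 35.6 ± 5.95 CPM (-0.60 ± 0.21). Of 10 tested genes of the receptor and its targets (median 0.08) 2 were higher and 1 lower at an unadjusted p under 0.05, and edgeR, DESeq2 and voom called none. Its classic target Cyp1a1 was too low to test, at 9 reads over the CD and 14 over the MD libraries, as was Stc2, at 21 and 34 reads. Of 11 kynurenine pathway genes (median -0.04) 1 was lower at an unadjusted p under 0.05 and none was called by the 3 tools. It was Kynu, kynureninase, at 99.9 ± 16.9 CPM in CD and 67.8 ± 15.1 CPM in MD (-0.56 ± 0.22).

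Of 19 clock genes (median 0.37) 1 was higher and 1 lower at an unadjusted p under 0.05, none passed in edgeR, and DESeq2 and voom each called 1. Over all genes 10.5% were higher and 9.4% lower at that unadjusted p, and DESeq2 called 4.61%, so the counts were near or under the background. Ciart, a repressor of CLOCK and BMAL1 with a strong daily rhythm, was at 5.07, 3.34, 6.44 and 12.3 CPM in CD and 10.4, 12.2, 25.1 and 26.8 CPM in MD (1.45 ± 0.45), and Cry2 at 74.1 ± 19.2 and 47.0 ± 18.9 CPM (-0.65 ± 0.27). The time of day of tissue collection is not given in the labels.

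The 10 hepatocyte markers had a median of -0.04, with 1 lower at an unadjusted p under 0.05 and none called by edgeR, DESeq2 or voom. Albumin, Alb, was at 34950.3, 33565, 45074 and 41688 CPM in CD and 30714, 16609.5, 37579 and 33037 CPM in MD (-0.40 ± 0.30), lowest in MD replicate 2, the library with the largest mitochondrial share. Of 17 hepatocyte transcription factors (median 0.19) 3 were higher and 3 lower at an unadjusted p under 0.05, none passed in edgeR, and DESeq2 and voom each called 2. Nr5a2, a regulator of bile acid synthesis, was at 49.3 ± 12.2 CPM in CD and 30.3 ± 4.95 CPM in MD (-0.70 ± 0.20), Zhx2 at 11.8 ± 1.44 and 7.33 ± 1.70 CPM (-0.68 ± 0.20), and Cebpb, a factor of the acute phase, at 121, 50.4, 62.9 and 221 CPM in CD and 431, 358, 158 and 195 CPM in MD (1.33 ± 0.42).

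The 30 genes of cytochrome P450 families 2 and 3 and their regulators had a median of -0.03. At an unadjusted p under 0.05, 3 were higher and 3 lower (10.5% and 9.4% over all genes). None passed in edgeR, and 3 were called by DESeq2 and 2 by voom. Cyp2c40 was at 671, 660.0, 636 and 663 CPM in CD and 332, 168, 369 and 289 CPM in MD (-1.18 ± 0.30), and Cyp2b13 at 127 ± 39.5 and 264 ± 66.1 CPM (1.05 ± 0.32). Genes of these families share sequence, so reads may be split between them. Of 15 tested sex-biased liver genes (median -0.05) 3 were higher and 2 lower at an unadjusted p under 0.05, none passed in edgeR, and DESeq2 and voom each called 3. Hsd3b5, a steroid enzyme typical of male liver, was at 1.69, 6.08, 2.68 and 2.57 CPM in CD and 0, 0.407, 0 and 0 CPM in MD (-5.10 ± 0.92, adjusted p = 0.055). Slco1a1, an organic anion transporter also typical of males, was at 18.2, 7.40, 7.51 and 6.67 CPM in CD and 1.47, 2.95, 0.601 and 0.0796 CPM in MD (-3.003 ± 0.93). Elovl3, a fatty acid elongase of the same kind, was higher in every MD library, at 0.473, 0.405, 1.43 and 0.695 CPM in CD and 1.82, 2.24, 2.03 and 9.39 CPM in MD (2.36 ± 0.63).

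Among 22 genes of lobular zonation (median 0.11) 2 were higher and 2 lower at an unadjusted p under 0.05 (10.5% and 9.4% over all genes). None passed in edgeR, DESeq2 called 1 and voom 2. Tbx3, a pericentral factor, was at 24.03 ± 6.13 CPM in CD and 43.8 ± 6.95 CPM in MD (0.86 ± 0.27), and the ammonium transporter Rhbg, also pericentral, at 1.09 ± 0.778 and 3.15 ± 1.48 CPM (1.52 ± 0.59). The periportal enzymes Hal, which breaks down histidine, and Cps1, of the urea cycle, were at -0.79 ± 0.23 and -0.78 ± 0.35, with Hal at -0.12 under a transcript length offset. Of 20 one-carbon and choline enzymes (median 0.12) 3 were higher and 2 lower at an unadjusted p under 0.05, none passed in edgeR, DESeq2 called 2 and voom 1. Chkb, choline kinase beta, was at 47.5, 30.3, 38.5 and 45.6 CPM in CD and 79.8, 155, 54.1 and 64.3 CPM in MD (1.12 ± 0.29, but 0.27 with protein-coding transcripts only).

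Mitochondrially encoded genes were higher on balance: of 13, none passed in edgeR, and 9 were higher and 0 lower at an unadjusted p under 0.05. In 1 gene all MD libraries were above all CD libraries, near the share over all genes (5.99%). DESeq2 called 4 and voom 1, and the median was 0.92. mt-Nd4, a subunit of complex I, was at 4627, 2771, 2328 and 4395 CPM in CD and 9541, 15109.8, 3461 and 7245 CPM in MD (1.32 ± 0.40), and mt-Co3, of complex IV, at 920.3 ± 261 and 1907 ± 547 CPM (1.05 ± 0.29). MD replicate 3 lay inside the CD range of mt-Nd4. The list's difference was 0.87 among short-fragment libraries and -0.12 among long-fragment ones, the latter with a single MD library. The sign in the long class came from mt-Atp6, a subunit of ATP synthase named after its values were seen, at -4.36 there. Without it the differences were 0.86 and 0.23. The 22 tested nuclear genes of the respiratory chain had a median of 0.19, with 1 higher and 1 lower at an unadjusted p under 0.05 and none called by edgeR, DESeq2 or voom. Sdha, a subunit of complex II, was at 368 ± 35.8 CPM in CD and 209.8 ± 107.56 CPM in MD (-0.81 ± 0.34). Of 17 mitochondrial carriers (median 0.23) Ucp2 passed and 4 were higher and 0 lower at an unadjusted p under 0.05.

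Of 21 tested cytokine, chemokine and adhesion genes, 2 were higher and 1 lower at an unadjusted p under 0.05 (10.5% and 9.4% over all genes). None was called by edgeR, DESeq2 or voom, and the median was 0.44. Among all genes tested the median was 0.29 below an average of 2 CPM and 0.12 at 2 to 16 CPM. Cxcl1, which attracts neutrophils, was at 17.6, 19.9, 7.51 and 33.9 CPM in CD and 80.1, 76.7, 45.9 and 28.3 CPM in MD (1.55 ± 0.52), and the membrane-bound chemokine Cxcl16 at 7.72 ± 0.626 and 10.1 ± 0.561 CPM (0.38 ± 0.17). Ccl2, which draws monocytes, was too low to test, at 11 reads over the CD and 26 over the MD libraries. The 23 tested interferon-stimulated genes had a median of -0.00, with 2 higher and 1 lower at an unadjusted p under 0.05 and none called by the 3 tools.

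Of 21 acute phase and complement genes, none passed in edgeR, and 2 were higher and 4 lower at an unadjusted p under 0.05 (10.5% and 9.4% over all genes). In every library 3 were above and 3 below CD (5.99% and 7.12% over all genes). DESeq2 called 3 and voom 2 (4.61% and 2.74% over all genes), and the median was -0.09. Saa4, the constitutive serum amyloid A, was at 142, 144, 119 and 136 CPM in CD and 326, 269, 278 and 297 CPM in MD (1.12 ± 0.34), and Saa3 at 1.15 ± 0.536 and 3.01 ± 0.952 CPM (1.42 ± 0.35). Saa1, the main inducible form, overlapped, at 10.1, 22.4, 37.7 and 9.66 CPM in CD and 27.7, 15.3, 67.2 and 80.6 CPM in MD (1.26 ± 1.33). The fibrinogen chains Fga and Fgb were lower, Fga at 2905, 3306, 2989 and 3015 CPM in CD and 1209, 706, 2150.3 and 1511 CPM in MD (-1.13 ± 0.39) and Fgb at 4341 ± 630.4 and 2017 ± 725 CPM (-1.11 ± 0.41).

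Of 12 resident Kupffer cell markers, none had an unadjusted p under 0.05 or was called by edgeR, DESeq2 or voom, and the median was 0.15. Clec4f was at 105.64, 74.3, 87.5 and 82.2 CPM in CD and 73.3, 121, 107.87 and 98.7 CPM in MD and Timd4 at 5.61, 4.96, 3.76 and 5.84 and 3.504, 6.92, 6.16 and 5.17 CPM, with overlap (0.20 ± 0.25 and 0.10 ± 0.31 on the log2 scale). In bulk RNA, fewer cells of a type and less RNA per cell cannot be told apart. Of 10 tested markers of recruited and lipid-associated macrophages (median 0.39) 2 were higher and 2 lower at an unadjusted p under 0.05, none passed in edgeR, and DESeq2 and voom each called 1, which was lower. Trem2, their defining receptor, had 7 reads over the CD and 21 over the MD libraries, and Gpnmb 15 and 12, too few to test. The integrin Itgax was at 0.473, 0.912, 0.805 and 1.18 CPM in CD and 1.68, 2.55, 1.35 and 1.99 CPM in MD (1.15 ± 0.51), and the chemokine receptor Ccr2 at 1.56 ± 0.396 and 2.97 ± 1.096 CPM (0.92 ± 0.36). Fabp5, a fatty acid binding protein on the same list that hepatocytes also express, was lower in every MD library, at 566, 1059, 369 and 912 CPM in CD and 60.3, 37.2, 69.3 and 135 CPM in MD (-3.27 ± 0.70, adjusted p = 0.0888). Of T and natural killer cells 4 of 12 markers, of B and plasma cells 6 of 8, of neutrophils 2 of 9 and of red blood cells 5 of 6 could be tested, and none passed in edgeR, DESeq2 or voom. At an unadjusted p under 0.05 the 1 of these 17 that stood out was Csf3r, the receptor of a neutrophil growth factor, at 1.35, 1.22, 1.43 and 1.53 CPM in CD and 3.85, 6.01, 2.25 and 1.67 CPM in MD.

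Of 28 tested extracellular matrix genes, none passed in edgeR, and 3 were higher and 1 lower at an unadjusted p under 0.05 (10.5% and 9.4% over all genes). DESeq2 and voom each called 1, and the median was 0.28. Col1a1, the main fibrillar collagen, was at 4.53, 2.74, 3.31 and 3.62 CPM in CD and 8.90, 6.31, 4.96 and 12.7 CPM in MD (1.20 ± 0.42, adjusted p = 0.149), with no overlap. Dcn, decorin, was at 57.8, 43.1, 66.4 and 77.0 CPM in CD and 149, 155, 85.3 and 111 CPM in MD (1.03 ± 0.24), also with no overlap. Mmp2, a gelatinase of stellate cells, was at 1.20 ± 0.464 CPM in CD and 2.49 ± 0.670 CPM in MD (1.07 ± 0.42). Fn1, fibronectin, which hepatocytes secrete into plasma, was lower in all MD libraries, at 1554, 1808, 1501 and 1510.0 CPM in CD and 741, 513, 1198 and 954 CPM in MD (-0.90 ± 0.32).

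Stellate cell and fibroblast markers (14 tested, median 0.31) had 5 higher and 1 lower at an unadjusted p under 0.05, none passed in edgeR, and DESeq2 and voom each called 1. Acta2, the smooth muscle actin of activated cells, was at 2.23, 0.912, 1.52 and 3.41 CPM in CD and 4.77, 6.72, 19.7 and 2.07 CPM in MD (2.01 ± 0.68), with MD replicate 3 far above the others. Endothelial markers of the sinusoids (12 tested, median 0.35) had 5 higher and 0 lower, none past the adjusted threshold in edgeR and 1 called by DESeq2 and by voom. Lyve1 was at 3.65, 2.13, 4.02 and 4.31 CPM in CD and 4.84, 6.92, 9.99 and 12.4 CPM in MD (1.27 ± 0.33), and Pecam1 at 8.25 ± 1.15 and 14.5 ± 4.997 CPM (0.81 ± 0.23). Liver growth, fetal and bile duct-like genes (15 tested, median 0.59) had 5 higher and 0 lower, none past the adjusted threshold in edgeR, 1 called by DESeq2 and 0 by voom. Krt19, the bile duct keratin, was at 2.50, 0.810, 1.70 and 1.53 CPM in CD and 2.59, 2.44, 20.7 and 2.87 CPM in MD (2.11 ± 0.67), and Cd24a at 1.22, 1.11, 2.33 and 1.74 CPM in CD and 2.24, 1.53, 13.9 and 3.34 CPM in MD (1.72 ± 0.58). In both, MD replicate 3 was far above all other libraries, and without it Krt19 was at 0.66 and Cd24a at 0.56, and Acta2 at 1.13 in place of 2.01. Other markers too low to test were also high there: the duct mucin Muc1 had 79 reads in MD replicate 3 and 5, 6 and 16 in the other MD libraries, the fat cell hormone Adipoq 20 reads against 0, 0 and 1, and the fat cell droplet protein Plin1 15 against 2, 0 and 0. Among controls, replicate 4 had 14 reads of Adipoq, 11 of Plin1 and 58 of the fat cell protease Cfd, where the others had 0 or 1. These were picked for their values, and the part of such cells in the duct, stellate and droplet values was not tested. Of 18 tested cell cycle genes (median 0.16) 1 was lower at an unadjusted p under 0.05 and none was called by the 3 tools. It was Ccnd1, cyclin D1, at 102.88 ± 31.1 CPM in CD and 59.5 ± 29.5 CPM in MD (-0.79 ± 0.33).

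**Figure D5:**
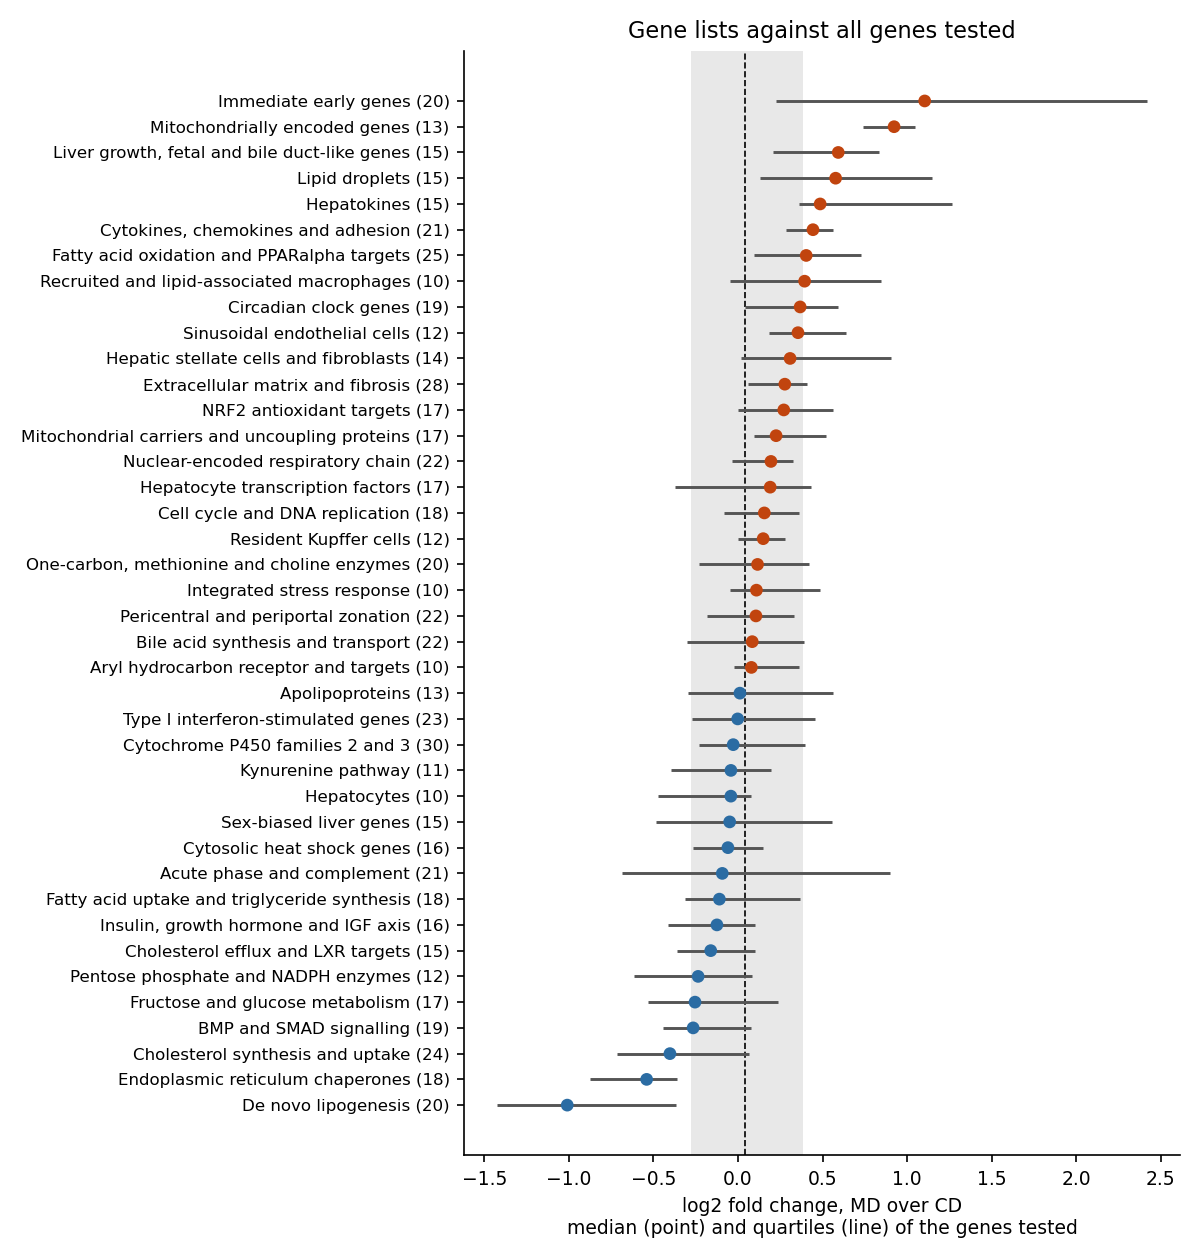
Median (points) and quartiles (lines) of the log2 fold change of MD over CD for 40 gene lists, with the number of genes tested in brackets; the dashed line is the median of all 13631 genes and the grey band their quartiles. De novo lipogenesis (-1.01) and endoplasmic reticulum chaperones (-0.54) are lowest, and immediate early (1.104) and mitochondrially encoded genes (0.92) highest. The dashed line and band were not matched to the expression level of the lists.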

How the data were processed

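RNA was isolated from snap-frozen liver and poly(A)-selected libraries were sequenced, as the labels' protocols state. Salmon 1.10.3, fastp, GRCm39 and DESeq2 are listed in the submitters' processing notes. The deposited tables give, per transcript, estimated counts (expected counts of reads) and TPM, which the authors' quantification scales to effective length. Estimated counts were summed per gene and rounded. TPM was used for transcripts only.

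Genes were kept by edgeR's filterByExpr (minimum count 10), scaled by TMM and tested by quasi-likelihood in edgeR 4.0.16 (R 4.3.3) over all 12 libraries with a mean per group, contrast MD minus CD, Benjamini-Hochberg over 13631 genes, threshold 0.05. SE is the log2 fold change over the square root of F. List levels are means of log2 CPM (prior count 2). Alternatives were other scalings, filters, covariates, single libraries left out, limma 3.58.1 voom and DESeq2 1.42.0. The test was tried on simulated counts with 200 changed genes.

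The comparison, its members and the 51 gene lists were chosen with earlier results of these data known. Genes were named by rule: all that passed, the 4 smallest p of each list, the next 10 in each direction and a set panel. Some genes the rule names are not reported here. Xist and the Y-linked and other library-check genes lie outside it. Promoter sequences are from RefSeq, build GRCm38.p6, and no coordinates of GRCm39 are used.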

Additional observations from a re-analysis of the deposited data

Results flagged for a closer look

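In 294 groups of 4 libraries (the named genes and 4 library measures, in CD and in MD), 15 had 1 library far from the other 3, where chance marks about 1 in 20. That rate holds for independent, normally distributed values. Most of these were CPM without logs, of genes that may vary together and were named partly for small p. The number that chance would give for them is therefore not known. In MD, replicate 3 stood above the others in Krt19 (20.7 CPM, others 2.44 to 2.87), Cd24a (13.9 CPM, others 1.53 to 3.34) and Hal (206.8 CPM, others 123.5 to 129.9). Replicate 4 stood above the others in 3 lipid genes, Plin4 (43.3 CPM, others 3.67 to 8.34), Mogat1 (5.01 CPM, others 0.916 to 1.20) and Elovl3 (9.39 CPM, others 1.82 to 2.24). MD replicate 2, with the shortest fragments, stood below the others in Pgap1 (6.31 CPM, others 11.2 to 11.8), Nqo1 (5.19 CPM, others 8.06 to 8.56) and Tmprss6 (87.3 CPM, others 112.5 to 115.9), and was the 1 MD library with Hsd3b5 reads (0.407 CPM, others 0).

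Among controls, replicate 2 was low in Cyp8b1 (11.3 CPM, others 28.2 to 31.3) and Plin4 (0.810 CPM, others 3.98 to 4.24). Replicate 1 was high in Slco1a1 (18.2 CPM, others 6.67 to 7.51). Replicate 3 was high in Kifc2 (12.2 CPM, others 9.46 to 9.93) and low in Tasp1 (6.89 CPM, others 8.41 to 8.51).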

How the results depend on the processing

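The count of 12 genes was 0 to 26 with single libraries left out, 481 with no filter on low counts (all 12 kept), 2 with a transcript length offset, 1 with protein-coding transcripts only, 35 with only CD and MD libraries (10 shared), 6 with fragment length as covariate (3 shared), 374 with limma voom and 629 with DESeq2. It was 1, not among the 12, without MD replicates 1 and 2, an alternative chosen after seeing the data, as was the block for fragment length class. With the replicate block 12 genes passed (8 shared), and in the fit of CD and MD alone with that block 35 (7 shared). The main fit did not pair libraries by replicate number. Deviations of same-numbered CD and MD libraries correlated at 0.303, -0.0792, 0.300 and 0.0985, and those of other CD and MD pairs at -0.363 to 0.299. Whether the numbers pair the libraries was not tested further. Genes without overlap numbered 2053 to 3299 with 1 library left out, when fewer libraries are compared.

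With fragment length as covariate the list median was -0.0697 for LXR targets, 0.23 for the aryl hydrocarbon receptor list, 0.16 for P450 genes, -0.0384 for hepatocyte factors and 0.16 for sex-biased genes. With the length offset it was -0.0364 for LXR targets and 0.52 for stellate markers. Upper-quartile scaling, which moved the median of all genes to 0.11, gave 0.15 for bile acid genes and 0.25 for hepatocyte factors, whose median was 0.26 with protein-coding transcripts and 0.0018 with voom. With 1 library left out, medians ran from -0.20 to -0.0461 for LXR targets, -0.0131 to 0.25 for the aryl hydrocarbon receptor list, 0.21 to 0.40 for clock genes, 0.0294 to 0.21 for one-carbon enzymes, 0.00996 to 0.28 for hepatocyte factors and 0.29 to 0.68 for recruited macrophages.

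Of the named genes, 5 changed sign, none of them past the threshold. Pdk4 was at 0.17 with the covariate, 0.0572 with voom and -0.33 to 0.10 with 1 library left out. Plin2 was at -0.0052 with no filter, -0.12 with the length offset, -0.0208 with the replicate block and -0.31 to 0.26 with 1 library left out. Srebf1 was at -0.27 with the covariate, -0.0695 with voom and -0.0585 to 0.27 with 1 library left out, Timd4 at -0.062 with voom and -0.0345 to 0.26, and mt-Atp6 (0.74) at -0.16 with the covariate, -0.36 with voom and 0.18 to 1.14 with 1 library left out. The cause was not tested in any of these. Of 135 named genes with a log2 fold change of at least 0.3 in size, 45 moved by over 1.5 times under at least 1 setting: 23 with fragment length as covariate, 10 with voom, 8 with protein-coding transcripts only, 7 with the length offset, 8 without MD replicate 2, 4 without MD replicate 3, 7 without MD replicate 4, 2 with the fragment class block, and 1 each with the replicate block and without CD replicate 2, 3 or 4. In the simulated counts, at this depth and with 4 libraries a group, most 2-fold changes were below detection.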

Other observations

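Other gene groups were tested as well, and none of their members passed the adjusted threshold in edgeR. Of 14 glucocorticoid targets and metallothioneins, 2 were higher at an unadjusted p under 0.05 and DESeq2 and voom called none. Among them was Klf9, a factor that glucocorticoids induce, at 157 ± 44.6 CPM in CD and 257 ± 55.5 CPM in MD (SD, n = 4). Of 22 genes of cell death, 1 was higher and 3 were lower at an unadjusted p under 0.05, DESeq2 called 2 lower and voom none. Of 19 lysosomal genes, 1 was higher and 2 were lower at an unadjusted p under 0.05, and of 17 genes of antigen presentation 1 was higher, with none called by DESeq2 or voom.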
